A study of Mus musculus with 8 samples.

Results

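Blood and lymphatic endothelial genes were followed in 8 mouse tumors through a fixed list of 46 genes, each represented by the probe set that carried its symbol alone and had the highest mean over all tumors. Of these, 45 had such a probe set among the 19937 genes tested, and Selp, P-selectin, was not analysed here. The tumors grew for 18 days after 4T1 cells, a metastasizing mammary cancer line, were placed in the mammary gland of BALB/c mice. In 4 tumors, called preirradiated, the fourth mammary gland had received a single 20 Gy dose of X-rays before the cells were implanted, and in the other 4, called nonirradiated, it had not. All tumors thus shared the cell line, the host strain, the site and the growth time, and the comparison asks how the vessel genes of a tumor differ when its bed was irradiated before it formed. The RNA came from whole tumor tissue on Affymetrix Mouse Gene 1.0 ST arrays, 1 array per tumor. The values are log2 signals after robust multi-array averaging (RMA), so a difference of 1.0 is a factor of 2.0. Whole tissue was measured, so fewer endothelial cells and less RNA per endothelial cell cannot be told apart. It is not stated that every tumor had its own host mouse, and the p-values measure the spread between these tumors.

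The endothelium lines blood and lymphatic vessels and is a small part of a tumor. Its cells are held together by VE-cadherin, claudin-5 and PECAM-1, and new vessels grow when tip cells lead a sprout under VEGF and Notch signals. Angiopoietin-1, made largely by cells around the vessel, activates the receptor Tie2 (gene Tek) and stabilizes vessels, while angiopoietin-2, stored in endothelial granules, can oppose it. The genes of the list are called endothelial genes below, Angpt1 included, whichever cells made the RNA. Irradiated vessels are known for losing endothelial cells and for altered permeability and leukocyte adhesion.

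Sequences are shown for the Tie receptor pair, because Tek and its relative Tie1 are compared below, and for the microRNA hosted by the endothelial gene Egfl7. The promoter windows hold 250 bases before and 50 after the gene start, from RefSeq on build GRCm38.p6. The Tek window is chr4:94739039-94739338 on the plus strand, and the Tie1 window is chr4:118489800-118490099 on the minus strand. Capitals mark AGATAAG, the letters of a GATA motif, in Tek and CNGGAAG, the letters of an ETS motif (here on the opposite strand), in Tie1.
Tek promoter: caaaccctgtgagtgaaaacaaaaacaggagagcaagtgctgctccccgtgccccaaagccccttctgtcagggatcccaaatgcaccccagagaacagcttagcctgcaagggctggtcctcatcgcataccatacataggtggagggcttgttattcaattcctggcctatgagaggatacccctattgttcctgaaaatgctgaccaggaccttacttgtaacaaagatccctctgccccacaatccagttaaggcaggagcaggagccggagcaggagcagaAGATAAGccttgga
Tie1 promoter: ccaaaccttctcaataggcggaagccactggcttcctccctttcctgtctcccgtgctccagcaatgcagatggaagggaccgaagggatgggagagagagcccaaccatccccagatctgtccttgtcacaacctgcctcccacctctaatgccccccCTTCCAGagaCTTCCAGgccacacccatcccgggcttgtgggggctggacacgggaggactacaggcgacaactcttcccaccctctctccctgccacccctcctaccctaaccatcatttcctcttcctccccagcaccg

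Promoter windows were at hand for 24 of the 46 genes. The ETS letters CNGGAAG, searched on both strands, stood in the window of 16 of these 24 and in 34.7% of the 27025 genes with a window. The GATA letters AGATAAG stood in 2 of the 24, Tek and Erg, and in 3.5% of all genes. These motifs do not overlap each other in the Tek and Tie1 windows. ETS factors such as Erg and Fli1 are themselves among the 46 genes, but a match of letters is a description and not a binding site.

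As a body, the endothelial genes lay close to their nonirradiated level. The median difference over the 45 measured genes, preirradiated minus nonirradiated, was 0.03 on the log2 scale, beside -0.004 over all 19937 genes. With each array centred on its median, the median difference over the 45 genes was -0.006. Centring shifts the differences of all genes alike, and the centred median over all genes is not given here. The centred value therefore cannot be set beside the -0.004. The mean was higher in preirradiated tumors for 28 genes and lower for 17, where 47.4% of all genes were higher. For 37 of the 45 the difference was under 0.15 in size. With limma and Benjamini-Hochberg adjustment over all 34738 probe sets tested, 0 of 45 passed an adjusted p of 0.05 in either direction (0% of all genes did), and the smallest adjusted p among them was 0.620. The study's own filter has no correction and keeps genes with a p of at most 0.05, a change of 0.4 log2 units or more and an average signal of 4.0 or more. It was passed by 1 gene of the list, Angpt1, which was lower (0.140% of all genes were past the filter as lower), and by 0 as higher (0.346% of all genes).

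At an unadjusted limma p under 0.05 there were 6 endothelial genes. Tek, Vwf, Aplnr and Gja5 were higher, 4 of 45 or 8.89%, where 2.39% of all genes were higher at this limit. Angpt1 and Vcam1 were lower, 2 of 45 or 4.44%, where 3.27% of all genes were lower. In 3 genes the tumors of the groups did not overlap: Tek and Vwf as higher (1.70% of all genes) and Vcam1 as lower (1.95% of all genes). The 45 genes were chosen with earlier results of these tumors known, so these counts describe the list and are not an independent test of it.

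**Figure D1:**
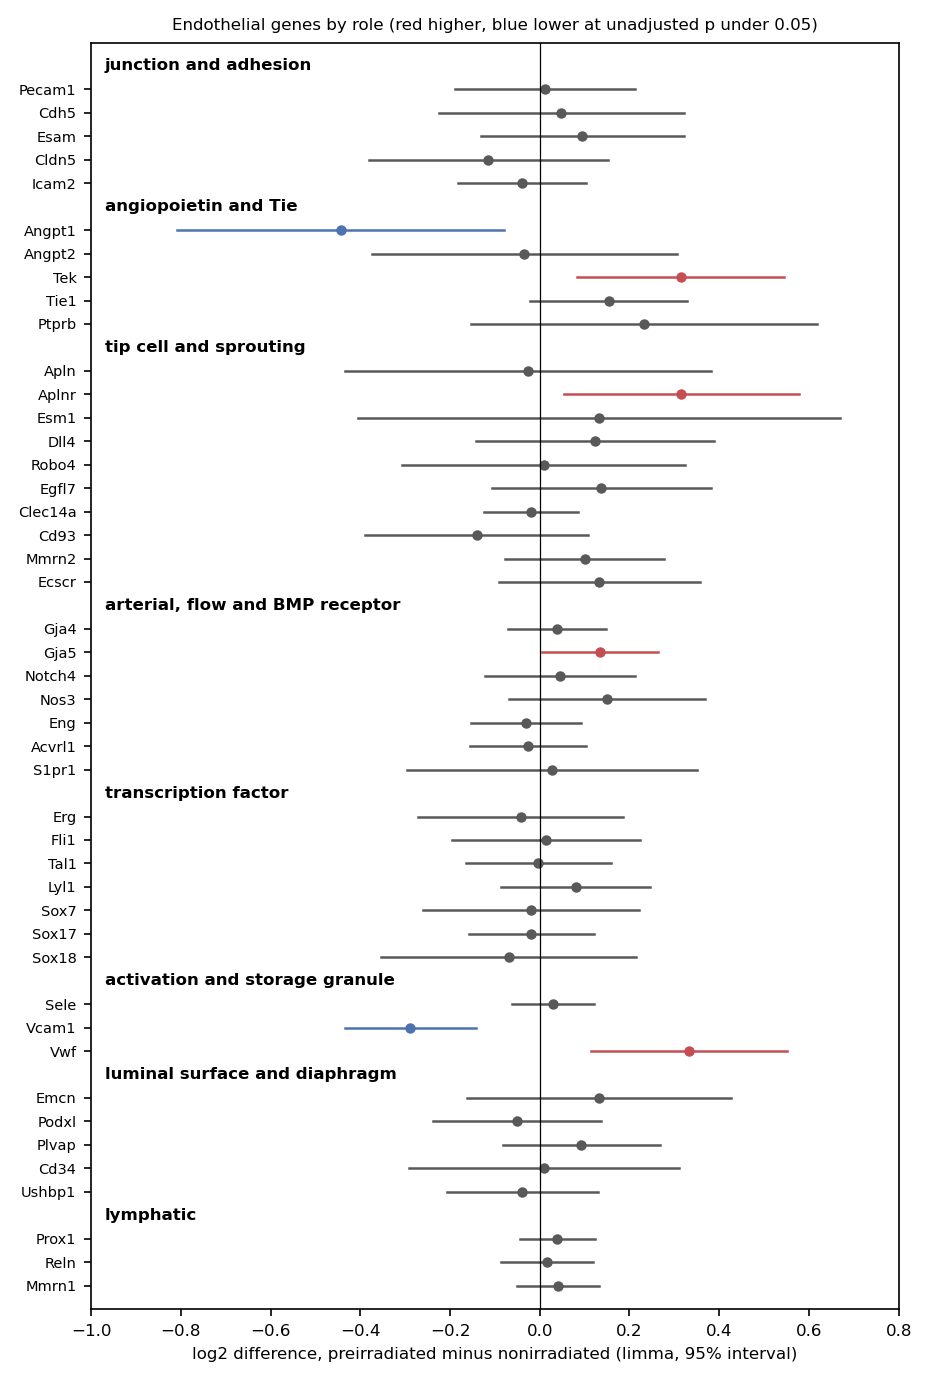
Log2 difference, preirradiated minus nonirradiated, of each of the 45 measured endothelial genes with its 95% interval from limma, arranged by role. Red points (Tek, Vwf, Aplnr, Gja5) were higher and blue points (Angpt1, Vcam1) lower at an unadjusted p under 0.05, and the intervals of the other genes include 0.

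The angiopoietin genes and their receptors held the largest difference of the list. Angpt1 (probe set 10428376), the agonist ligand of Tie2, was at 8.79, 8.80, 8.85 and 8.93 in nonirradiated tumors 1 to 4 and at 7.98, 8.39, 8.37 and 8.86 in preirradiated tumors 1 to 4. Preirradiated tumors 1, 2 and 3 lay below every nonirradiated tumor, and preirradiated tumor 4 lay within their range. The group means were 8.40 ± 0.36 and 8.84 ± 0.07 (SD, n = 4 each), a log2 difference of -0.44 (SE 0.16, limma adjusted p = 0.812), so that the nonirradiated level was 1.36-fold the preirradiated one. The value depended on single tumors: without preirradiated tumor 1 the difference was -0.31, and without preirradiated tumors 1 and 3, both high in skeletal muscle genes, it was -0.22. Without preirradiated tumor 1 or without nonirradiated tumor 4 (difference -0.41) Angpt1 missed the study's filter. Without preirradiated tumor 4 it was -0.60.

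Angpt2 (probe set 10577315), the context-dependent antagonist, was at 7.36, 7.28, 7.45 and 7.33 in nonirradiated tumors and at 7.74, 7.26, 7.35 and 6.93 in preirradiated tumors 1 to 4. Its preirradiated tumors spread to both sides of the nonirradiated range, with tumor 1 above it and tumors 2 and 4 below. The difference was -0.03 (95% interval -0.37 to 0.31), which does not exclude a change of either sign. Single tumors decided its value. The difference turned to 0.10 without preirradiated tumor 4 and to 0.02 with weighted arrays, and it was -0.17 without preirradiated tumor 1. Without preirradiated tumors 1 and 3 it was -0.26, where the groups did not overlap and the unadjusted p was under 0.05.

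Tek (probe set 10505954), the receptor Tie2, was at 6.62, 6.93, 6.74 and 7.02 in nonirradiated tumors and at 7.35, 7.07, 7.12 and 7.04 in preirradiated tumors 1 to 4. All preirradiated tumors were above all nonirradiated ones, but the gap between preirradiated tumor 4 and nonirradiated tumor 4 was 0.02. The difference was 0.31 (SE 0.10), or 1.24-fold (limma adjusted p = 0.789). It was 0.22 without preirradiated tumors 1 and 3, where it missed an unadjusted p of 0.05, and with each array centred on its median or after a further quantile normalization the groups overlapped. The related receptor Tie1 (probe set 10515771), which forms complexes with Tie2, was 8.70 ± 0.08 in preirradiated and 8.54 ± 0.14 in nonirradiated tumors, a difference of 0.15 (SE 0.08, 95% interval -0.02 to 0.33). Tie1 was at an unadjusted p under 0.05 without nonirradiated tumor 2 or without preirradiated tumor 3. Ptprb, the phosphatase VE-PTP that restrains Tie2, was 8.15 ± 0.38 and 7.92 ± 0.07, a difference of 0.23 (SE 0.17, 95% interval -0.15 to 0.62). Its preirradiated values ran from 7.87 to 8.71, with the top value in tumor 1.

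**Figure D2:**
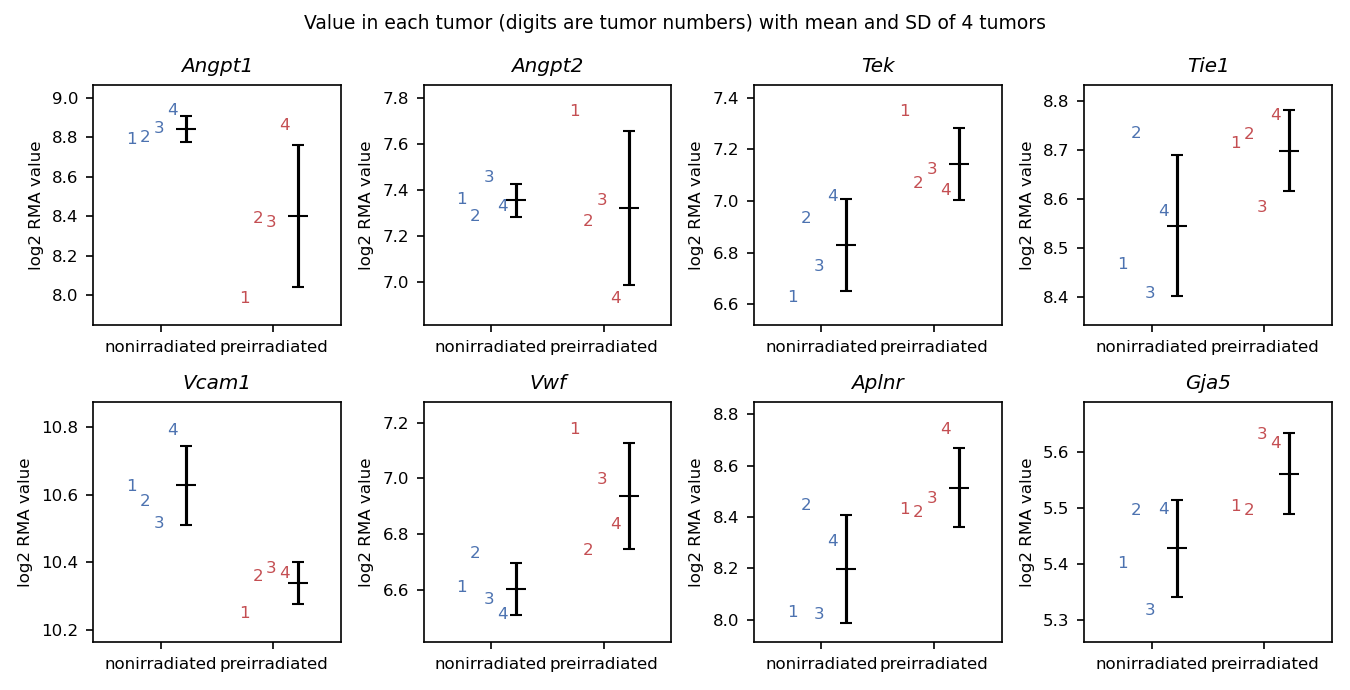
Log2 RMA value of 8 endothelial genes in each tumor, where digits are tumor numbers, blue is nonirradiated, red is preirradiated, and black bars give the mean and SD of 4 tumors (each panel has its own axis). The groups do not overlap for Tek, Vwf and Vcam1, while preirradiated tumor 4 reaches the nonirradiated range of Angpt1.

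Among the genes of endothelial activation and storage granules, Vcam1 and Vwf went opposite ways. Vcam1 (probe set 10501608), the adhesion molecule that binds leukocyte integrins on activated endothelium and is also made by fibroblasts and macrophages, was at 10.62, 10.58, 10.52 and 10.79 in nonirradiated tumors. In preirradiated tumors 1 to 4 it was at 10.25, 10.36, 10.38 and 10.37. All preirradiated tumors were lower, and the gap between the groups was 0.13. The difference was -0.29 (SE 0.06), with the nonirradiated level 1.22-fold the preirradiated one. It had the smallest p among the endothelial genes (limma adjusted p = 0.620). Its p stayed under 0.05 in each of the 16 alternative settings, which reuse the same tumors. Its size is below the 0.4 limit of the study's filter. Leukocyte markers were lower too: of 8 measured markers all 8 had a lower mean, as did 10481 of all 19937 genes. At p under 0.05, 3 of the 8 were lower (3.27% of all genes). Their median lay between -0.25 and -0.12 from the nonirradiated level in preirradiated tumors, and between -0.14 and 0.06 in nonirradiated tumors. Fibroblast markers went the other way, with 7 of 8 higher by mean (47.4% of all genes) and a list median of 0.39. At p under 0.05, 4 of these 8 were higher (2.39% of all genes). The part of leukocytes or fibroblasts in the Vcam1 value was not tested.

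Vwf (probe set 10541910), von Willebrand factor, is the main cargo of the Weibel-Palade storage bodies and is also held in platelets. It was at 6.61, 6.73, 6.57 and 6.51 in nonirradiated tumors and at 7.17, 6.74, 6.995 and 6.83 in preirradiated tumors 1 to 4. All preirradiated tumors were higher, although preirradiated tumor 2 lay only 0.01 above nonirradiated tumor 2. The difference was 0.33 (SE 0.10), or 1.26-fold (limma adjusted p = 0.759). It kept a p under 0.05 in all 16 alternative settings, which reuse the same tumors, with a difference of 0.18 without preirradiated tumors 1 and 3. A further quantile normalization left the groups overlapping. The 5 measured platelet and megakaryocyte markers had a median difference of -0.01, with 2 higher, 3 lower and 0 at p under 0.05. Sele, E-selectin, which captures rolling leukocytes on inflamed endothelium, was 5.73 ± 0.04 in preirradiated and 5.70 ± 0.05 in nonirradiated tumors, below the median probe set of 5.97, where a change is hard to see.

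Genes of tip cells and sprouting did not move as a group. Of 10 measured, 7 had a higher and 3 a lower mean, with a median difference of 0.11. That median rested on preirradiated tumor 1: it was -0.007 without this tumor and -0.001 without preirradiated tumors 1 and 3. Aplnr (probe set 10473444), the receptor of the peptide apelin on growing vessels and veins, was at 8.03, 8.44, 8.02 and 8.30 in nonirradiated tumors and at 8.43, 8.42, 8.47 and 8.74 in preirradiated tumors 1 to 4. Preirradiated tumor 4 was highest, while preirradiated tumors 1 and 2 lay just under nonirradiated tumor 2. The difference was 0.32 (SE 0.11), or 1.24-fold (limma adjusted p = 0.812). Its unadjusted p was above 0.05 when any of 3 tumors was left out, with a difference of 0.26 without nonirradiated tumor 1, 0.26 without nonirradiated tumor 3 and 0.24 without preirradiated tumor 4. Apln, the ligand and a tip cell gene, did not follow its receptor, at 9.42 ± 0.38 in preirradiated and 9.44 ± 0.16 in nonirradiated tumors. Its preirradiated range, 8.91 to 9.83, reached beyond the nonirradiated range of 9.23 to 9.62 on both sides.

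Esm1, the proteoglycan endocan, was 6.49 ± 0.47 and 6.36 ± 0.28, a difference of 0.13 (95% interval -0.41 to 0.67), with preirradiated tumor 1 at 7.19 and the other preirradiated tumors at 6.33 or less. Dll4, the Notch ligand of tip cells, was 8.11 ± 0.22 in preirradiated and 7.98 ± 0.14 in nonirradiated tumors, and again preirradiated tumor 1 was highest, at 8.43. In both genes preirradiated tumor 1 was the highest of the 8 tumors, and neither was at p under 0.05.

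Among receptors and matrix proteins of the sprout, 0 were at p under 0.05 with all 8 tumors. Cd93 (probe set 10488382), a C-type lectin receptor of endothelium that myeloid cells also carry, was at 10.90, 10.98, 10.96 and 11.14 in nonirradiated and at 11.11, 10.93, 10.78 and 10.59 in preirradiated tumors, a difference of -0.14 (95% interval -0.39 to 0.11). The difference was -0.23 without preirradiated tumor 1, where the unadjusted p was under 0.05, and -0.05 without preirradiated tumor 4. Its partner in the vessel matrix, Mmrn2, differed by 0.10 and the related lectin Clec14a by -0.02. Ecscr (probe set 10458303), a surface protein of endothelial migration, was at 8.02, 8.18, 8.17 and 8.20 in nonirradiated and at 8.28, 8.51, 8.30 and 8.02 in preirradiated tumors, where preirradiated tumor 4 was the lowest of all and the other preirradiated tumors were the highest. Its difference was 0.13 (95% interval -0.09 to 0.36). Without preirradiated tumor 4 it was 0.22, with an unadjusted p under 0.05 and no overlap of the groups, and without preirradiated tumor 2 it was 0.055. Robo4, which steadies vessels, was 8.16 ± 0.26 and 8.15 ± 0.18, a difference of 0.01.

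Egfl7, a secreted endothelial protein, was 8.88 ± 0.14 in preirradiated and 8.74 ± 0.20 in nonirradiated tumors, a difference of 0.14 (SE 0.11, 95% interval -0.11 to 0.38). The gene holds miR-126, a microRNA abundant in endothelium, within it (chr2:26591402-26591423, plus strand, GRCm38.p6). The seed, bases 2 to 8, is in capitals.
mmu-miR-126a-3p: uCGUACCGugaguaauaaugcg
The probe set of this microRNA gene had a mean of 4.50 ± 0.03 in preirradiated and 4.48 ± 0.05 in nonirradiated tumors. That lies at percentile 5.88 of the probe set means, so a change of miR-126 could not be seen on these arrays.

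Junction and adhesion genes had a median difference of 0.01 over 5 genes, with 0 at p under 0.05. Their median deviation from the nonirradiated level was 0.22, 0.065, -0.06 and -0.18 in preirradiated tumors 1 to 4, so these tumors went both ways. In nonirradiated tumors it ran from -0.12 to 0.15. Cdh5, VE-cadherin, was 10.40 ± 0.21 in preirradiated and 10.35 ± 0.17 in nonirradiated tumors (95% interval of the difference -0.22 to 0.32). Pecam1, which leukocytes and platelets also carry, was 9.04 ± 0.18 and 9.03 ± 0.07. Cldn5 (probe set 10434229), the claudin of the tight junction, was at 8.69, 9.13, 8.65 and 8.79 in nonirradiated and at 8.75, 8.88, 8.57 and 8.60 in preirradiated tumors, a difference of -0.11 (95% interval -0.38 to 0.15). Nonirradiated tumor 2 was the highest, and without it the difference was -0.01. Esam (probe set 10584317), an adhesion molecule of endothelial junctions, was at 8.52, 8.84, 8.58 and 8.56 against 8.85, 8.85, 8.66 and 8.51, a difference of 0.09 (95% interval -0.13 to 0.32). Preirradiated tumors 1 and 2 lay just above nonirradiated tumor 2, while preirradiated tumors 3 and 4 lay below it, so the groups overlapped. Icam2, present on resting endothelium, differed by -0.04.

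In the arterial, flow and BMP receptor group 5 of 7 genes had a higher mean, by a median of 0.04. Gja5 (probe set 10494548), the arterial connexin 40, was at 5.40, 5.49, 5.32 and 5.50 in nonirradiated and at 5.50, 5.49, 5.63 and 5.62 in preirradiated tumors, a difference of 0.13 (SE 0.06, limma adjusted p = 0.850). Preirradiated tumors 3 and 4 lay above the nonirradiated range and tumor 1 only just above it, the signal is below the median probe set, and in 4 of the 8 fits that left out a tumor the p was above 0.05. The difference was 0.125 and 0.10 in the fits that lacked nonirradiated tumors 1 and 3 in turn, and 0.11 and 0.12 in those that lacked preirradiated tumors 3 and 4 in turn. The p was also above 0.05 with each array centred on its median (difference 0.10) and after a further quantile normalization (difference 0.11). Gja4, the connexin 37 of arteries, differed by 0.04.

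Nos3 (probe set 10520126), the endothelial nitric oxide synthase, was at 7.04, 7.44, 7.14 and 7.32 in nonirradiated and at 7.53, 7.41, 7.37 and 7.25 in preirradiated tumors. The preirradiated tumors were the more even, and the difference was 0.15 (95% interval -0.07 to 0.37). Leaving out nonirradiated tumor 1 gave 0.086, and leaving out nonirradiated tumor 2 gave 0.22 with an unadjusted p under 0.05. The Notch receptor Notch4 differed by 0.04. Eng and Acvrl1, endoglin and ALK1, which together bind BMP9 on endothelium, differed by -0.03 each, and the 95% interval of Eng, -0.15 to 0.09, excludes a change as large as the 0.4 of the study's filter. S1pr1, the sphingosine-1-phosphate receptor of vessels and lymphocytes, was 7.43 ± 0.29 and 7.40 ± 0.14.

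Transcription factors of the endothelial program spanned a narrow range, with differences from -0.07 to 0.08 over 7 genes and 0 at p under 0.05. Erg, an ETS factor that maintains endothelial identity, was 7.89 ± 0.19 in preirradiated and 7.93 ± 0.11 in nonirradiated tumors, and Fli1, an ETS factor shared with blood cells, was 8.43 ± 0.18 and 8.41 ± 0.09. Sox18 (probe set 10490731) was at 9.06, 9.60, 9.17 and 9.10 in nonirradiated and at 9.14, 9.33, 9.18 and 9.001 in preirradiated tumors. Its difference of -0.07 turned to 0.05 without nonirradiated tumor 2, which was the highest of the 8. Its relatives Sox7 and Sox17 differed by -0.02 each. Lyl1 (probe set 10573419), a helix-loop-helix factor of blood and endothelium, was at 8.02, 8.24, 7.89 and 8.07 against 8.08, 8.13, 8.12 and 8.21, a difference of 0.08 (95% interval -0.09 to 0.25). Leaving out nonirradiated tumor 3 gave 0.03. Leaving out nonirradiated tumor 2 gave 0.14, with an unadjusted p under 0.05 and no overlap of the groups. Its relative Tal1 was 7.04 ± 0.11 and 7.05 ± 0.11.

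The luminal surface and diaphragm genes had a median difference of 0.01 over 5 genes. Emcn (probe set 10496359), endomucin, a sialomucin of capillaries and veins, was at 9.54, 9.77, 9.83 and 9.95 in nonirradiated and at 9.999, 10.15, 9.88 and 9.59 in preirradiated tumors, a difference of 0.13 (95% interval -0.16 to 0.43). Preirradiated tumors 1 and 2 were the highest of the 8, and preirradiated tumor 4 was among the lowest. Plvap (probe set 10579525), which forms the diaphragms of fenestrae, was at 9.16, 9.26, 9.30 and 9.0 against 9.34, 9.24, 9.36 and 9.15, a difference of 0.09 (95% interval -0.08 to 0.27). Cd34, shared with stromal and blood progenitors, was 9.84 ± 0.25 and 9.83 ± 0.16. Podxl, podocalyxin, and Ushbp1 differed by -0.05 and -0.04, and neither had groups that stood apart.

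The lymphatic genes of the list were near the floor of the arrays. Prox1 (probe set 10361023), the transcription factor that specifies lymphatic endothelium, was at 5.18, 5.11, 5.13 and 5.19 in nonirradiated and at 5.20, 5.15, 5.19 and 5.23 in preirradiated tumors. Mmrn1 (probe set 10538706), multimerin of lymphatic endothelium and platelets, was at 4.81, 4.74, 4.77 and 4.77 against 4.79, 4.89, 4.76 and 4.81. Reln, reelin, which lymphatic endothelium secretes, was 5.24 ± 0.07 and 5.22 ± 0.04. All 3 lay below the median probe set, their differences were at most 0.04, and 0 were at p under 0.05, so a change in lymphatic endothelium was not detectable through them. Of 4 other measured lymphatic markers, which other cells also make, 1 was higher and 1 lower at p under 0.05 (2.39% and 3.27% of all genes). Pdpn (podoplanin) was higher by 0.61 (limma adjusted p = 0.840), and its groups overlapped. Itga9 differed by -0.19 (limma adjusted p = 0.789), and its groups did not overlap (1.95% of all genes as lower). Lyve1 and Flt4 differed by -0.04 and 0.04.

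Endothelial genes also varied from tumor to tumor within a group. The SD over tumors of an endothelial gene had a median of 0.14 in preirradiated and 0.11 in nonirradiated tumors, beside 0.078 and 0.075 over all genes. Only 7 of the 45 genes lay below the median probe set, and SDs were not compared at matched signal. The SD was larger in the preirradiated group for 26 of 45. Preirradiated tumor 1 had the highest value of the 8 in 17 of 45 genes, and preirradiated tumor 4 the lowest in 15. In 8 genes both held: Pecam1, Cdh5, Angpt2, Apln, Robo4, S1pr1, Erg and Cd34. Preirradiated tumor 1 was above preirradiated tumor 4 in 31 of 45 genes, and the median of tumor 1 minus tumor 4 over all 45 was 0.25. Shares over all genes are not given for these counts, so they cannot be read as particular to the endothelial genes. The median deviation from the nonirradiated level over all genes was -0.009 in preirradiated tumor 1 and 0.013 in preirradiated tumor 4. Over the 45 genes it was 0.137 and -0.045. Preirradiated tumor 1 was also the highest of the 8 for Tek and Vwf, and it was the lowest for Vcam1. In these genes preirradiated tumors 1 and 4 stood on the same side of the nonirradiated tumors, which follows from groups that do not overlap.

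**Figure D3:**
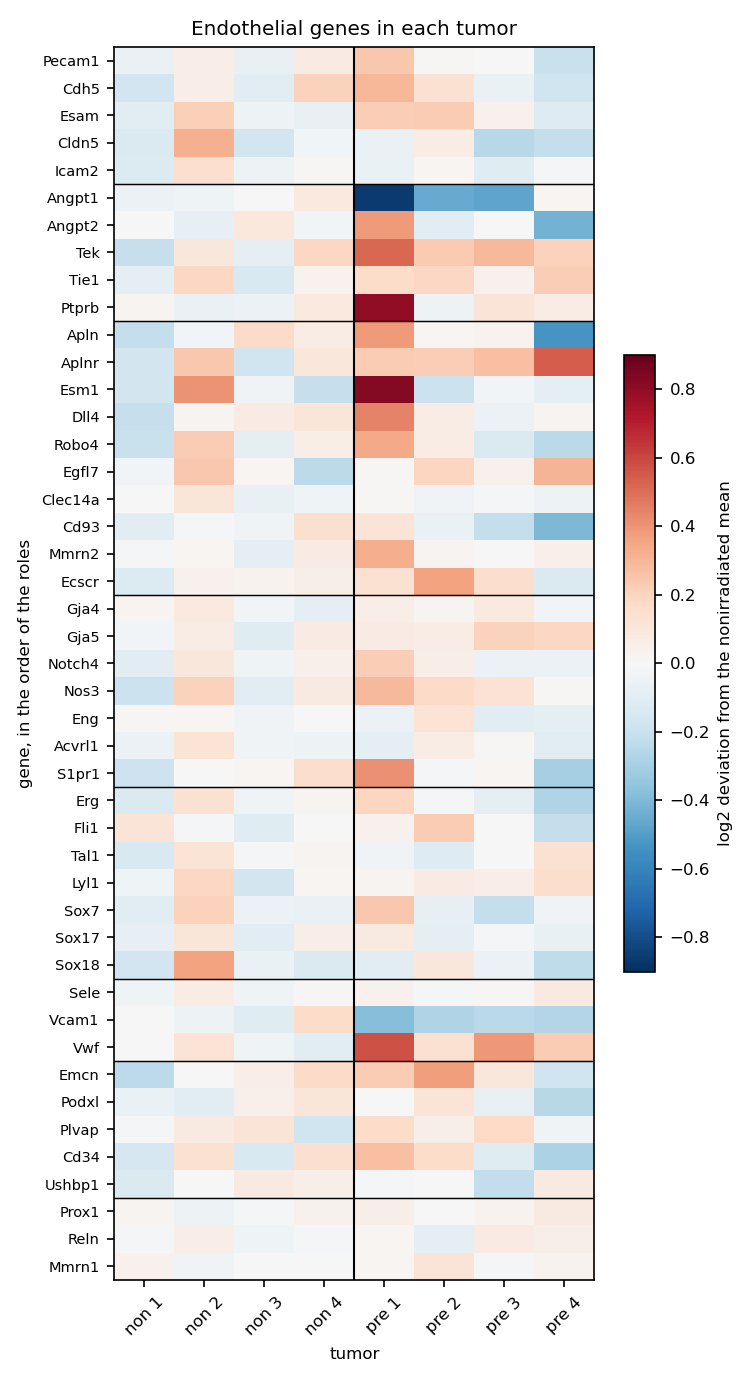
Log2 deviation of each endothelial gene (rows, in the order of the roles, with lines between roles) from its nonirradiated mean in each tumor (columns, non for nonirradiated and pre for preirradiated). Preirradiated tumor 1 is the highest of the 8 tumors in 17 of 45 rows and preirradiated tumor 4 the lowest in 15 (shares over all genes are not given).

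Other cell types were read beside the vessel genes. The defining endothelial markers Pecam1, Cdh5, Tie1, Emcn and Cldn5 lay above the median probe set of 5.97 in every tumor, the lowest value being 8.41 for Tie1 in nonirradiated tumor 3. The median deviation of the 45 endothelial genes from the nonirradiated level ran from -0.08 to 0.08 in nonirradiated tumors and from -0.05 to 0.14 in preirradiated ones. Skeletal muscle markers reached 3.46 and 4.61 above that level in preirradiated tumors 1 and 3, while tumors 2 and 4 of the same group were at -0.08 and 0.09. Adipocyte markers stood 1.595 above it in preirradiated tumor 1, the tumor with the most vessel gene maxima. Pericyte markers, of cells that wrap capillaries and can make Angpt1, had 7 of 9 members higher by mean (47.4% of all genes), with a list median of 0.21. Their tumor values ran from -0.10 to 0.55 in preirradiated and from -0.08 to 0.11 in nonirradiated tumors. These markers did not move together: Rgs5 and Kcnj8 were lower, by -0.15 and -0.07, while Cspg4 and Acta2 were higher by 0.30 and 0.43. Des, with the largest difference at 1.89, was high only in preirradiated tumors 1 and 3 (9.17 and 11.28), as skeletal muscle markers were. Fibroblast markers had 7 of 8 higher by mean (47.4% of all genes), with a list median of 0.39. Their tumor values ran from 0.14 to 0.61 in preirradiated and from -0.15 to 0.11 in nonirradiated tumors. Carcinoma markers such as Krt8 were high in every tumor, at 12.45 to 12.63, and their list differed by a median of 0.17. The part of any of these cells in the vessel gene values was not tested.

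**Figure D4:**
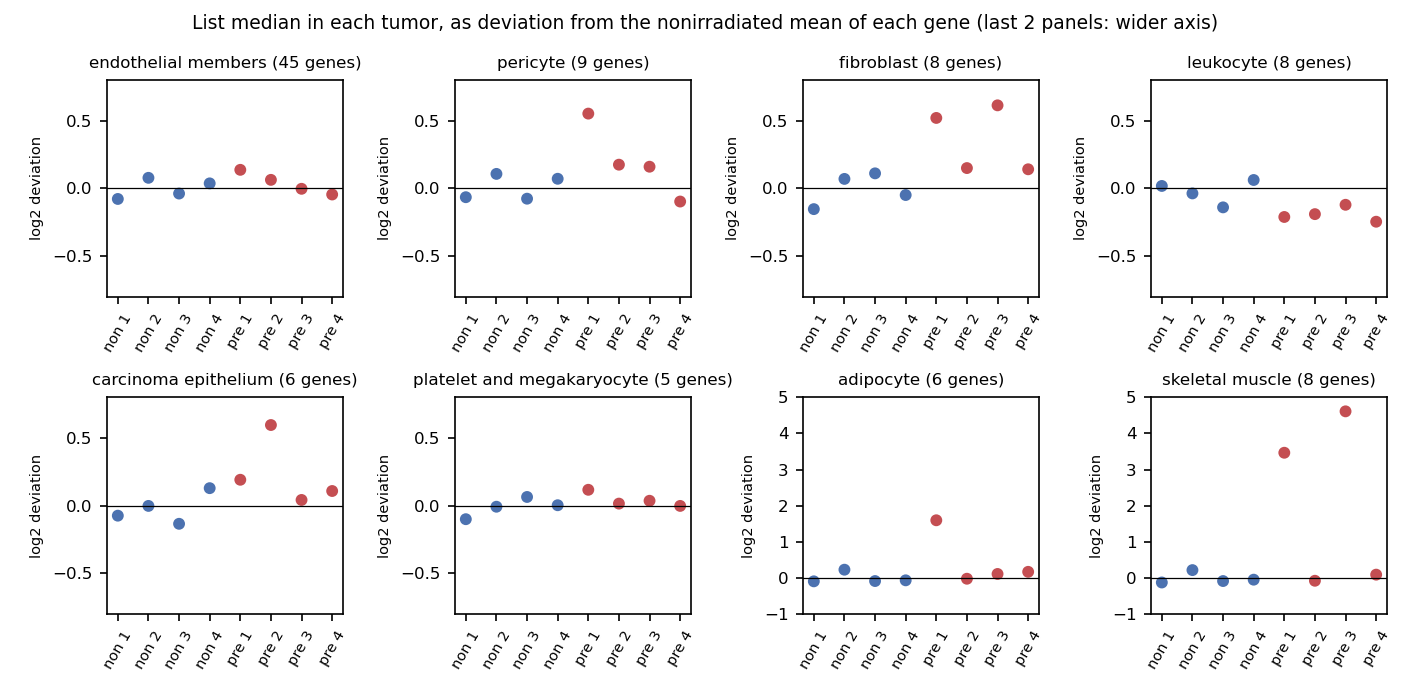
Median log2 deviation of each list of genes from the nonirradiated level in each tumor, for the 45 endothelial genes and 7 lists of markers (blue nonirradiated, red preirradiated, wider axis in the last 2 panels). The endothelial median stays between -0.08 and 0.14, while skeletal muscle markers reach 3.46 and 4.61 in preirradiated tumors 1 and 3.

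Genes that signal to the endothelium were counted from lists of their own. Of 10 VEGF ligands and receptors, 1 was higher at p under 0.05 (2.39% of all genes) and 0 were lower (3.27%). The higher one was the lymphangiogenic ligand Vegfd, at 6.21 ± 0.18 in preirradiated and 5.92 ± 0.16 in nonirradiated tumors, near the median probe set of 5.97. By mean, 6 of the 10 were higher and 4 lower. The ligand Vegfa differed by 0.29 and Vegfc by -0.22, neither at p under 0.05. The receptors Kdr and Flt1 differed by 0.09 and 0.05. Of 11 genes of Notch, arterial and venous identity, 1 was higher, Jag1, and 1 lower, Nrarp, at p under 0.05 (2.39% and 3.27% of all genes). Jag1, a Notch ligand, was 8.83 ± 0.07 in preirradiated and 8.61 ± 0.06 in nonirradiated tumors, a difference of 0.21 (limma adjusted p = 0.627). Nrarp, a Notch target that feeds back on the pathway, was 8.67 ± 0.09 and 8.93 ± 0.12, a difference of -0.26 (limma adjusted p = 0.679). The groups of both genes did not overlap (1.70% of all genes as higher and 1.95% as lower). Hey1, Hey2, Heyl, Hes1 and Notch1 of the same list differed by 0.08, -0.04, 0.08, -0.03 and 0.08. None of these was at p under 0.05, and their groups overlapped. The Notch genes among the endothelial members, Dll4 and Notch4, were not at p under 0.05.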

How the data were processed

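The authors deposited log2 signals, one per probe set and tumor, computed by robust multi-array averaging in the affy package of Bioconductor 2.4, per the labels and the series' design text; the submitters' processing notes name R 2.15.3. The quantile step of this method makes the arrays more alike, and small changes near background are understated. The array medians still ran from 5.937 to 5.977 in nonirradiated and from 5.982 to 5.996 in preirradiated tumors. The chip description file is not stated. Of 34760 probe sets, 21640 listed 1 symbol, 1321 several and 11799 none, and 34738 with a mean of at least 4.0 were tested. All 45 measured genes had 1 probe set each.

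Groups came from sample titles. Preirradiated minus nonirradiated was tested with limma 3.58.1 (lmFit, eBayes, two-sided, R 4.3.3) over the 8 arrays, as in the design text. The number of arrays limits the precision. The gene lists, roles and settings were chosen with earlier results of these data known. In each role the 2 smallest p-values and the 2 largest differences, both angiopoietins, and genes past the study's filter or without overlap were given for each tumor, and the others as means. The fit was tested on simulated data. Alternatives covered the expression limit, variance model, normalization, centring, array weights, the replicate block, the probe sets of a gene and tumors left out. Same-numbered tumors did not deviate together, and the main fit treated the tumors as unpaired. The titles do not say whether the number marks a pairing.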

Additional observations from a re-analysis of the deposited data

Results flagged for a closer look

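In 90 groups of 4 tumors (45 genes in 2 groups), 7 had a tumor whose distance from the nearest of the other 3 was a large part of the range, where chance gives about 1 in 20. On the high side, nonirradiated tumor 2 stood apart for Esam at 8.84 (the others at most 8.58), Acvrl1 at 7.99 (at most 7.84) and Sox7 at 7.42 (at most 7.17). Preirradiated tumor 1 stood apart for Esm1 at 7.19 (at most 6.33) and Mmrn2 at 8.13 (at most 7.85), and preirradiated tumor 4 for Aplnr at 8.74 (at most 8.47). On the low side, nonirradiated tumor 1 stood apart for Ecscr at 8.02 (the others at least 8.17).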

How the results depend on the processing

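No endothelial gene passed an adjusted p of 0.05 in any of the 16 alternatives. Dropping the expression limit or averaging the probe sets of a gene could not change the difference of any endothelial gene. Leaving out 1 tumor at a time gave 2 to 7 genes higher and 1 to 3 lower at p under 0.05, 0 to 1 lower past the study's filter, 2 to 5 without overlap as higher and 1 to 2 as lower. The count of 7 came without nonirradiated tumor 2. Shares over all genes are not given here for the alternatives, so their counts cannot be read against all genes. Without preirradiated tumors 1 and 3 there were 2 higher at p under 0.05 and 0 past the filter, 2 were lower without overlap, and the median of the angiopoietin and Tie genes was 0.009. Genes without overlap as higher numbered 0 after a further quantile normalization and 1 with centred arrays, where the lymphatic median was 0.005. Angpt2 turned to 0.016 with array weights and to -0.259 without preirradiated tumors 1 and 3, and ran from -0.17 to 0.10 over the tumors left out, and Sox18 from -0.126 to 0.052. The cause was not tested. With the replicate block, 3 genes were higher and 2 lower at p under 0.05, without Tek and Gja5 and with Tie1. Same-numbered tumors had correlations of -0.29 to -0.08. Sele, Gja4, Gja5, Sox17 and the 3 lymphatic genes lay below the median probe set, which limits what they can show.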
